A study of Mus musculus with 10 samples.

Results

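Imprinted genes are transcribed from the maternal or the paternal copy according to a mark set in the germ line, and they were followed here in mouse embryonic stem cells (ESCs) that lost the transcription factor SOX2. A list of 35 imprinted genes, 28 coding and 7 non-coding, was searched in the deposited table of 40779 transcribed units (TUs), which are stretches of continuous nascent transcription on 1 strand. Of the 35 genes, 28 had a TU under their symbol, and 25 of these, 20 coding and 5 non-coding, had more than 10 fragments in at least 2 of the 10 libraries and were tested. Ndn, Igf2 and Cdkn1c had a TU with too few fragments (1 to 11 per library). Peg3, H19, Airn, Dlk1, Nnat, Zim1 and Magel2 were not the symbol of any TU.

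All 10 libraries came from ESCs of the line labelled E14 (E14Tg2A, 129/Ola, in the methods, which name IB10 cells for the SOX2 line) and of the genotype SOX2-FKBP, in which SOX2 carries a degron tag that recruits the small molecule dTAG-13 and sends the protein to degradation. The 5 groups of 2 replicates were cells given DMSO (NT, 0 h) and cells given 500 nM dTAG-13 for 0.5, 1, 2 or 6 hours (0.5hpd, 1hpd, 2hpd and 6hpd, hours post depletion). Every group, NT included, thus carried the tag, was grown without serum on gelatin with LIF and inhibitors of MEK and GSK3-beta, and was labelled with 2 mM 4-thiouridine for 10 min before the newly made RNA was captured and sequenced (TT_chem-seq). Per the study's methods the tagged line was made from picked homozygous clones, and untagged cells given dTAG-13 were not analysed here. The counts are not split by parental copy, so that the copy that was transcribed was not read.

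As background, imprinted genes lie mostly in clusters, and each cluster is governed by a control region that is DNA-methylated on the maternal or the paternal copy. The zinc finger protein ZFP57, with TRIM28 and SETDB1, binds the methylated form of the hexamer TGCCGC in these regions and keeps the mark through the early divisions of the embryo. Several clusters make a long non-coding RNA from the copy on which coding neighbours are silent, such as Kcnq1ot1 in the Kcnq1 cluster and Airn in the Igf2r cluster. ESCs hold these marks, although culture can erode some of them.

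The promoters of 4 called members are shown with this hexamer in capitals on either strand (TGCCGC, or GCGGCA as its reverse complement). Each is the 300 bases from 250 before to 50 after the annotated RefSeq start nearest to the start of the TU (GRCm38.p6, which shares its coordinates with mm10), written 5′ to 3′ on the strand of the gene. Mest and Copg2 lie opposite each other, Kcnq1ot1 is the non-coding RNA of the Kcnq1 cluster, and Plagl1 is the coding member that fell.
Mest (chr6:30737803-30738102, plus strand): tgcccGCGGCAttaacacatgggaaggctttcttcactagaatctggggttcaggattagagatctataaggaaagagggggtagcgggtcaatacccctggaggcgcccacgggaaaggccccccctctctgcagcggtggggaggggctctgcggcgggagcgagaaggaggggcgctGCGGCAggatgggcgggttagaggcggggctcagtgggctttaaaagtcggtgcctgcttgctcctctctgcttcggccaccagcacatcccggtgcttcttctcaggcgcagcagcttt
Copg2 (chr6:30896745-30897044, minus strand): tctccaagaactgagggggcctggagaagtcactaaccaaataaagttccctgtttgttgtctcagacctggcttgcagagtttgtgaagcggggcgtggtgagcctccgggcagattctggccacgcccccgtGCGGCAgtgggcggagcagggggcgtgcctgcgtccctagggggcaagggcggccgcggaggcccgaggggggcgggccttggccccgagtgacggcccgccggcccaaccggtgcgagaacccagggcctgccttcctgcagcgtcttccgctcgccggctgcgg
Kcnq1ot1 (chr7:143296498-143296797, minus strand): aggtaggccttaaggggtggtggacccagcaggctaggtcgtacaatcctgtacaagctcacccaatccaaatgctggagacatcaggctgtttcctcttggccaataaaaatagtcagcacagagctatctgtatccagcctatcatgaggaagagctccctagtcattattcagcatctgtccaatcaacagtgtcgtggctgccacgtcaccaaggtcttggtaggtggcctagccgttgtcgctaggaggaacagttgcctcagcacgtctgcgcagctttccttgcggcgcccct
Plagl1 (chr10:13090582-13090881, plus strand): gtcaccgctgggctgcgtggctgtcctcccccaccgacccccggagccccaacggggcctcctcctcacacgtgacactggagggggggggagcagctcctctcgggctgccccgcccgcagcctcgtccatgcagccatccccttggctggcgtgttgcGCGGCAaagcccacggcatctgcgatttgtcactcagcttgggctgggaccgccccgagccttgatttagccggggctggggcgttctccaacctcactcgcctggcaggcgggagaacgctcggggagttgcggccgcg

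Of the 25 tested members, 20 had such a promoter in the RefSeq table; Peg10, Sgce, Kcnq1, Nespas and Impact had none there. The Mest promoter held the hexamer at 2 places, those of Copg2 and Plagl1 at 1 each, and that of Kcnq1ot1 at none. It was found in 7 of the 20 member promoters, and in 11.6% of all 32851 promoters of this length. The letters ATTGTT, the core that SOX proteins bind, were searched on both strands and were found in the promoter of Gnas alone among the 20, and in 10.7% of all promoters. The annotated start used for Gnas lay 1862 bp from the start of its TU. Among the 15 members whose annotated start was within 500 bp of the start of the TU, 5 held the hexamer and 0 the SOX core. Member promoters held a median of 17 CpG dinucleotides, against 7 over all promoters.

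The Dlk1-Meg3 cluster was represented by 3 non-coding TUs, Meg3, Rian and Mirg, which lie head to tail on the plus strand of chromosome 12 with 10 bp between neighbours. They are the host transcripts of a large group of microRNAs, and 14, 29 and 10 annotated hairpins lay in their TUs, respectively. Mature sequences are shown in the order of their shared seeds, with bases 2 to 8, the seed, in capitals. The first pair shares its seed across Rian and Mirg, the other pairs each share theirs within 1 host, and miR-127-3p, shown for Meg3, shares its seed with none of them. The counts measure the host transcription and not these microRNAs.
mmu-miR-494-5p (Rian): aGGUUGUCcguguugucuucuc
mmu-miR-410-5p (Mirg): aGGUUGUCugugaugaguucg
mmu-miR-453 (Mirg): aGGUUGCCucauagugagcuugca
mmu-miR-496a-5p (Mirg): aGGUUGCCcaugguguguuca
mmu-miR-379-5p (Rian): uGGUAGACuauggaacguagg
mmu-miR-1193-5p (Rian): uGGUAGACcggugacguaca
mmu-miR-379-3p (Rian): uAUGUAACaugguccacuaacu
mmu-miR-411-3p (Rian): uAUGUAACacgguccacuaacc
mmu-miR-127-3p (Meg3): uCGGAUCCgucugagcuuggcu

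Libraries held 11131490 to 25854106 fragments, of which the tested members took 0.185% to 0.234%, and log2 CPM of replicates correlated at r = 0.985 to 0.99 across TUs. All 8 pluripotency markers listed were tested, and their summed level was 4170 to 4580 CPM (depth-normalised fragment counts, on TMM-scaled library sizes) in NT and 3570 to 3860 at 6hpd, with Klf4, Pou5f1, Nanog and Esrrb called down at 6hpd. Neural markers, of which 3 of 4 were tested, had a summed level of 40.3 to 43.5 CPM in NT and 25 to 27 at 6hpd, trophoblast markers (3 of 6) of 8.82 to 14.2 and 5.9 to 6.29, and primitive endoderm markers (4 of 6) of 3.85 to 4.71 and 6.46 to 7.28. Sox1, Cdx2, Elf5, Sox17, T, Mesp1 and Col1a2 had no TU or too few fragments. Fewer cells of a type and less RNA per cell cannot be told apart in bulk libraries, and the part of these markers in the results below was not tested.

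Before depletion, the non-coding members were transcribed at the highest density. In CPM per kb of TU, the mean of the NT libraries was 3.91 ± 0.23 (SD, n = 2) for Mirg, 3.88 ± 0.18 for Nespas, 3.39 ± 0.19 for Rian and 2.99 ± 0.44 for Kcnq1ot1, and Meg3 came seventh at 2.23 ± 0.26. The coding genes Impact (2.70 ± 0.13) and Ube3a (2.55 ± 0.32) stood between Kcnq1ot1 and Meg3, and this run from Kcnq1ot1 to Meg3 held only neighbours whose NT libraries overlapped. Snrpn, Zrsr1, Tssc4 and Igf2r followed at 1.51, 1.38, 1.32 and 0.995 CPM per kb. The lowest were Plagl1 (0.125 ± 0.010), Usp29 (0.0836 ± 0.0160), Sgce (0.0771 ± 0.0101) and Kcnq1 (0.0611 ± 0.0023). Usp29 and Sgce overlapped in NT, whereas Sgce and Kcnq1 did not.

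**Figure D1:**
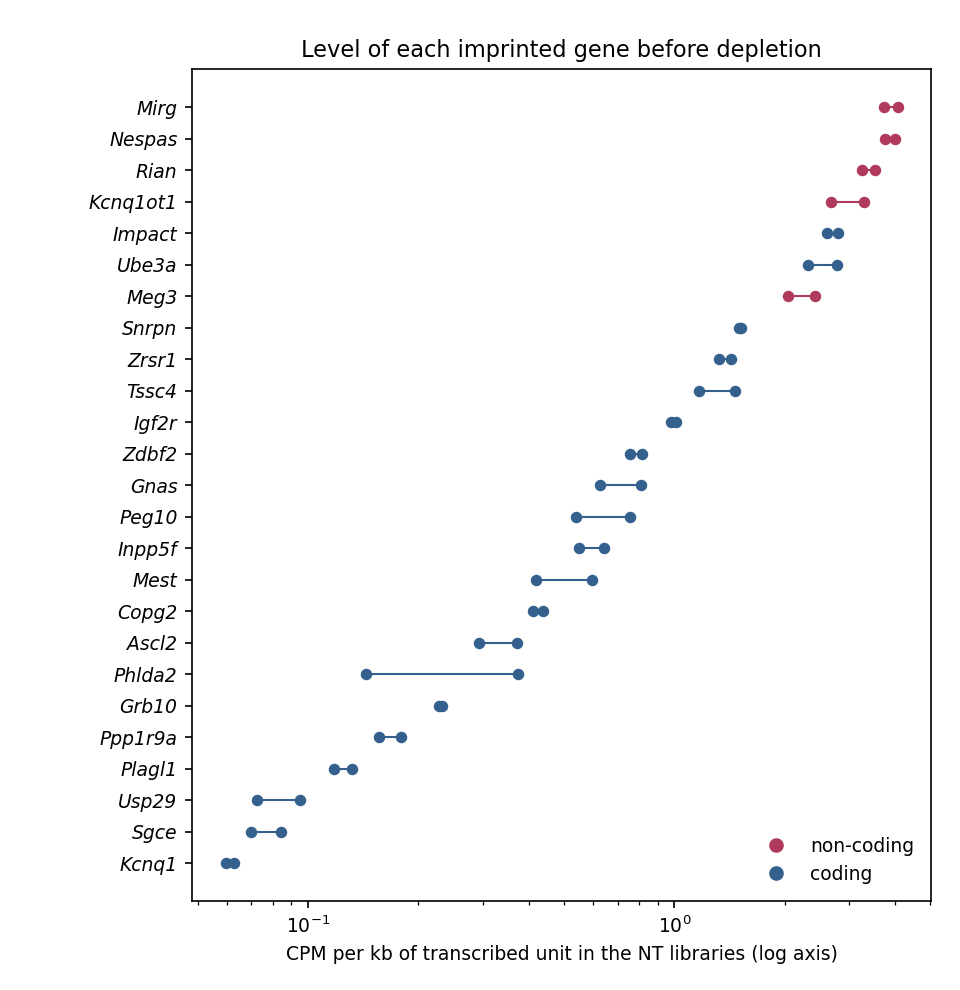
Level of each tested imprinted gene in the NT libraries, in CPM per kb of transcribed unit on a log axis, with 1 point per library (2 per gene, joined by a line) and colour for coding or non-coding type. The 5 non-coding genes are all among the 7 densest, and Kcnq1 is the lowest at 0.0611.

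Not every TU matches its gene. The TU labelled Ascl2 (chr7:142974011-143011738, minus strand) covered 0% of the RefSeq span of Ascl2, a placental transcription factor gene, and is named by its label only. The TU of Usp29 covered 5.09% of its gene and lay wholly opposite Zim3. The TUs of Snrpn, Gnas and Kcnq1 covered 4.84%, 33.4% and 38.5% of the RefSeq spans of their genes, and that of Snrpn is labelled with Snurf as well. Conversely, 21.9% of the TU of Tssc4 lay in the gene, 24.1% for Zrsr1, 41.5% for Phlda2, 44.1% for Rian and 47.6% for Meg3. The densities above are those of the TUs. Where TUs overlap on opposite strands, the strand-split counts decide between them, and fragments assigned to the wrong strand would move from the larger TU to the smaller.

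Which imprinted genes respond once SOX2 is gone was addressed by testing every time point against NT over all 28459 tested TUs (edgeR quasi-likelihood test, Benjamini-Hochberg adjusted p under 0.05). At 0.5hpd, 1 of 25 rose and 0 fell, against 0.527% of all TUs up and 0.787% down. At 1hpd, 2 rose and 2 fell (all TUs, 2.15% and 3.61%), and at 2hpd 5 rose and 0 fell (all TUs, 4.26% and 5.57%). At 6hpd, 7 rose and 2 fell, where 6.61% of all TUs rose and 9.2% fell. Of TUs with a gene symbol and a mean of at least 50 fragments, as 23 of the 25 members had, the shares that rose at 0.5, 1, 2 and 6hpd were 1.03%, 4.3%, 8.05% and 11.9%, and the shares that fell were 0.921%, 3.8%, 5.6% and 7.94%. Where no member was called down, 1 member fell at an unadjusted p under 0.05 at 0.5hpd and 1 at 2hpd, and DESeq2 called 0 down at both. In either direction, 1.31%, 5.75%, 9.83% and 15.8% of all TUs were called at 0.5, 1, 2 and 6hpd. The joint test over the 4 time points called 9 of 25 members, against 12.3% of all TUs.

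In all, 10 members were called at 1 or more time points, 8 up (Mest, Copg2, Peg10, Sgce, Ppp1r9a, Kcnq1, Kcnq1ot1 and Gnas) and 2 down (Plagl1 and Mirg). Over all TUs, 18.8% were called at any time, 8.46% up and 10.4% down, and over TUs with a symbol and a mean of at least 50 fragments 24.4%, 15.2% up and 9.3% down. By type, 8 of 20 coding and 2 of 5 non-coding members were called. The median log2 fold change over the 25 members was 0.08, 0.14, 0.28 and 0.21 at 0.5, 1, 2 and 6hpd, and that over all TUs was -0.02, -0.04, -0.04 and -0.04. Over TUs with a symbol and a mean of at least 50 fragments it was 0.01, 0.04, 0.06 and 0.08. For coding members alone it was 0.08, 0.13, 0.32 and 0.26, and for the 5 non-coding ones 0.00, 0.17, 0.25 and -0.32. At 0.5hpd, both libraries lay above both NT libraries for 3 members and below for 3, against 15.6% and 19% of all TUs. At 6hpd, both libraries lay above both NT libraries for 14 members and below for 7, as they did for 27.5% and 31% of all TUs.

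These counts rested in part on single libraries. Without NT replicate 2, the members called up numbered 0, 0, 2 and 4 at 0.5, 1, 2 and 6hpd, and those called down 0 after 1 h. Without NT replicate 1, 0 were called down at 1hpd. Without either 0.5hpd replicate none rose at 0.5hpd, where the median became -0.07 without replicate 1, and 1 fell at 1hpd. Without 1hpd replicate 1, 0 fell at 1hpd, and without 1hpd replicate 2, 0 rose and 0 fell. Without 2hpd replicate 1, 3 rose at 2hpd, whereas 10 rose without 2hpd replicate 2, with 14 members called in the joint test. Without 6hpd replicate 1, 1 fell at 6hpd and at 1hpd and the 6hpd median became 0.10, and without 6hpd replicate 2, 4 rose. Each such fit leaves 1 library in a group, which is taken to vary like those of the other groups.

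**Figure D2:**
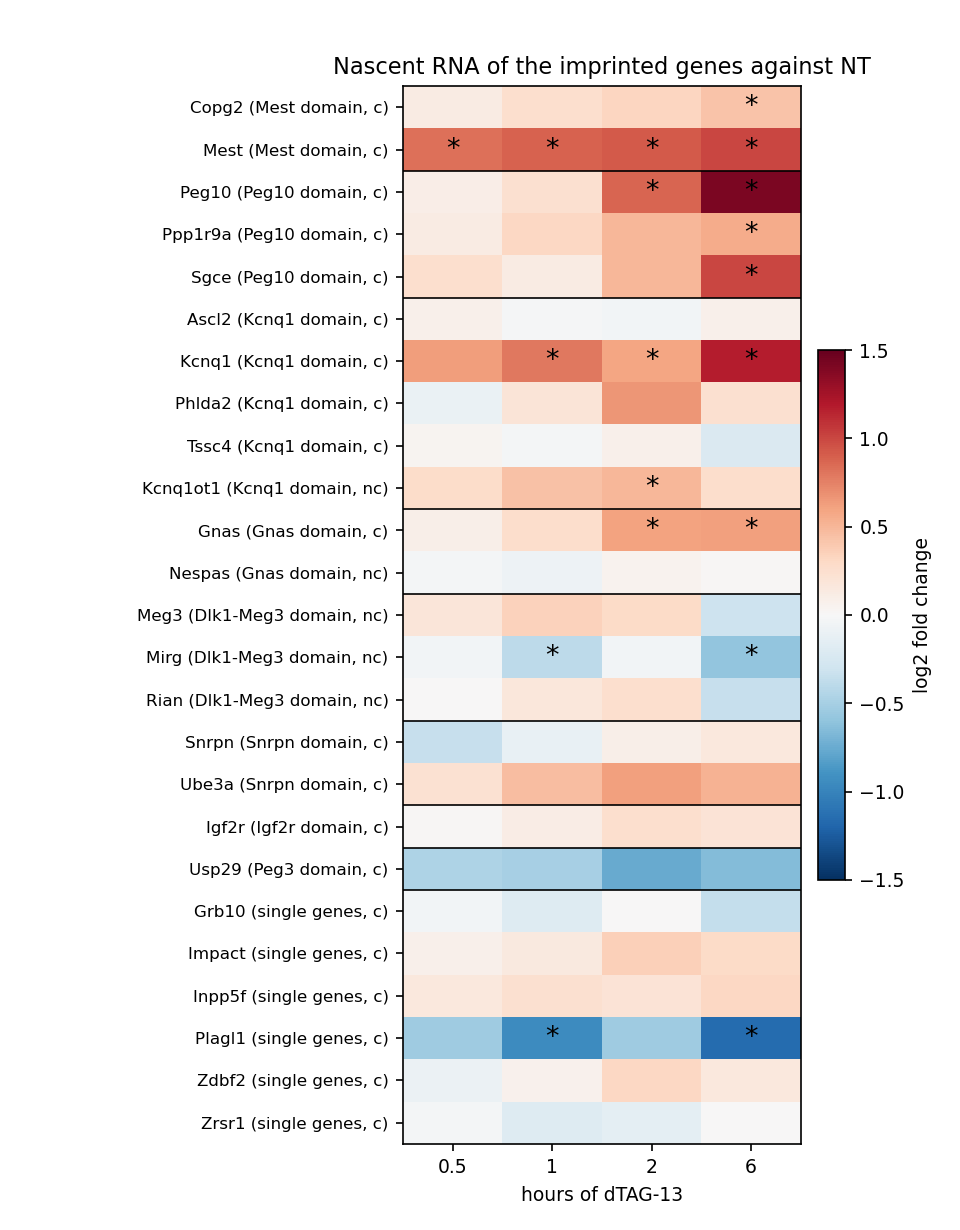
Log2 fold change of each of the 25 tested imprinted genes against NT after 0.5, 1, 2 and 6 hours of dTAG-13, grouped by cluster, with c for coding and nc for non-coding. A star marks an adjusted p under 0.05 (edgeR); Mest carries one at all 4 time points, and Peg10 at 6hpd has the largest increase at 1.41.

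In the Mest cluster on chromosome 6, Mest rose within 0.5 hours and stayed high. Mest encodes a hydrolase-like protein and is read from the paternal copy. Its level was 8.75 and 6.18 CPM in NT, 13.3 in each library at 0.5hpd, 13.4 and 14.3 after 1 h, 15.3 and 12.9 after 2 h, and 15.45 and 14.6 after 6 h. All 8 depleted libraries lay above both NT libraries, and the libraries at 2hpd spanned those at 0.5 and 1hpd. The log2 fold changes were 0.83 ± 0.17 (SE; adjusted p = 0.0231), 0.89 ± 0.17 (0.00457), 0.91 ± 0.17 (0.00235) and 1.00 ± 0.17 (0.000834) at 0.5, 1, 2 and 6hpd, all from edgeR. The 0.5hpd call was lost without NT replicate 2 (adjusted p = 0.232) or either 0.5hpd replicate (0.124 and 0.0883), and the 1hpd call without NT replicate 2 (0.0632) or 1hpd replicate 2 (0.0531), all in edgeR, whereas those at 2 and 6hpd were kept in each of these fits.

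Copg2, which encodes a subunit of the COPI vesicle coat, lies on the opposite strand, and its TU covers the whole TU of Mest. Copg2 was called up only at 6hpd and by less than Mest, from 71.2 and 67.1 CPM in NT to 87.7 and 97.8 after 6 h (log2 fold change 0.42 ± 0.13, edgeR adjusted p = 0.035). At 0.5, 1 and 2hpd its log2 fold changes were 0.12, 0.25 and 0.33 and were not called, although the replicate block called it up at 2hpd. The timing of Copg2 was not compared with that of Mest in a test. Copg2 held 8.14 and 10.9 times the fragments of Mest in the NT libraries and 5.33 to 6.69 times in the depleted ones, with no overlap. The call of Copg2 was lost without either NT library (edgeR adjusted p = 0.062 and 0.173 for replicates 1 and 2), either 6hpd library (0.056 and 0.212) or 1hpd replicate 1 (0.0501).

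In the Peg10 cluster, on the same chromosome, all 3 members rose by 6hpd. Peg10 is a gene derived from a retrotransposon that the placenta requires, and Sgce encodes the membrane protein epsilon-sarcoglycan. Sgce runs in the other direction, with 1001 bp between the TUs. The annotated RefSeq starts lie closer together, at chr6:4747204 for Sgce and chr6:4747306 for Peg10. Peg10 stood at 7.74 and 10.8 CPM in NT, 10.8 and 8.81 after 0.5 h, 10.98 and 10.8 after 1 h, 16.6 and 17.5 after 2 h, and 26.2 and 23.0 after 6 h. It overlapped NT at 0.5 and 1hpd, then rose by 0.88 ± 0.17 (edgeR adjusted p = 0.00291) at 2hpd and by 1.41 ± 0.16 (3.41e-05) at 6hpd on the log2 scale. The step from 2 to 6hpd, 0.53 ± 0.15, was not called (edgeR adjusted p = 0.157), although it was called with the replicate block.

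Sgce stood at 5.25 and 6.32 CPM in NT, 6.91 and 6.84 after 0.5 h, 6.46 and 6.15 after 1 h, 8.24 and 8.065 after 2 h, and 11.6 and 11.5 after 6 h. Only the 1hpd libraries overlapped those of NT. The log2 fold change was 0.50 ± 0.16 after 2 h (edgeR adjusted p = 0.0712) and 1.00 ± 0.16 after 6 h (0.000659), and the 6hpd calls of Peg10 and Sgce were kept without each library in turn and under each other setting tried. With the replicate block, Sgce and the remaining member, Ppp1r9a, were called up at 2hpd too. Ppp1r9a, which encodes neurabin, an actin-binding scaffold of neurons, went from 47.65 and 41.4 CPM in NT to 66.1 and 65.1 after 6 h (log2 fold change 0.56 ± 0.17, edgeR adjusted p = 0.0396). Its call was lost without either NT library (edgeR adjusted p = 0.06 and 0.244 for replicates 1 and 2) or either 6hpd library (0.129 and 0.131), and at a minimum mean of 50 fragments (0.0583).

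In the Kcnq1 cluster on chromosome 7, Kcnq1 was called up at 1, 2 and 6hpd and Kcnq1ot1 at 2hpd; the difference between them was not tested. Kcnq1, a potassium channel gene, stood at 7.74 and 7.34 CPM in NT, 10.6 and 12.9 after 0.5 h, 12.1 and 13.95 after 1 h, 10.3 and 12.45 after 2 h, and 16.02 and 18.1 after 6 h. Every depleted library was above both of NT. The log2 fold changes were 0.62 ± 0.17 (edgeR adjusted p = 0.0939), 0.79 ± 0.17 (0.00916), 0.59 ± 0.17 (0.0353) and 1.18 ± 0.16 (0.000162) at 0.5, 1, 2 and 6hpd. With the replicate block, Kcnq1 was called up at 0.5hpd too. The 6hpd call was kept in each fit. The 1hpd call was lost without NT replicate 2 (edgeR adjusted p = 0.0844) or 1hpd replicate 2 (0.118), and the 2hpd call without NT replicate 1 (0.0922), NT replicate 2 (0.187) or 2hpd replicate 2 (0.154), with total counts only (0.135) and with only the NT and 2hpd libraries (0.071).

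Kcnq1ot1, the long RNA that silences its neighbours on the paternal copy, stood at 285.5 and 232 CPM in NT, 343 and 282 after 0.5 h, 367 and 334 after 1 h, 416 and 311 after 2 h, and 304 and 318.5 after 6 h. It was called at 2hpd (log2 fold change 0.49 ± 0.15, edgeR adjusted p = 0.045), where its 2 libraries were far apart, and measured 0.27 ± 0.15 after 6 h (0.233). The 2hpd call was lost without NT replicate 2 (edgeR adjusted p = 0.349), 2hpd replicate 1 (0.403), either 1hpd replicate (0.0663 each) or 6hpd replicate 1 (0.0586) or 2 (0.0635), and with only the NT and 2hpd libraries (0.056). At 1hpd Kcnq1ot1 was not called (0.44 ± 0.15, edgeR adjusted p = 0.107), but it was called there with only the compared libraries, with the replicate block and without either 2hpd replicate.

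The TUs of Kcnq1 and Kcnq1ot1 share 29354 bp on opposite strands, which is 23.8% of the former and 33.9% of the latter. Kcnq1 held 2.48% to 5.69% of the fragments of Kcnq1ot1. Per fragment of Kcnq1, there were 36.9 and 31.6 of Kcnq1ot1 in NT, 32.3 and 21.8 after 0.5 h, 30.3 and 24 after 1 h, 40.4 and 25 after 2 h, and 19 and 17.6 after 6 h, so that the ratio left the NT range downward in both libraries at 1 and 6hpd. The part of wrong-strand fragments in the level of Kcnq1 was not tested. The other tested members of the cluster were not called, with log2 fold changes at 6hpd of 0.08 ± 0.16 for the TU labelled Ascl2, -0.22 ± 0.21 for Tssc4 and 0.24 ± 0.51 for Phlda2, a growth-limiting placental gene measured here on only 5 to 19 fragments a library.

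**Figure D3:**
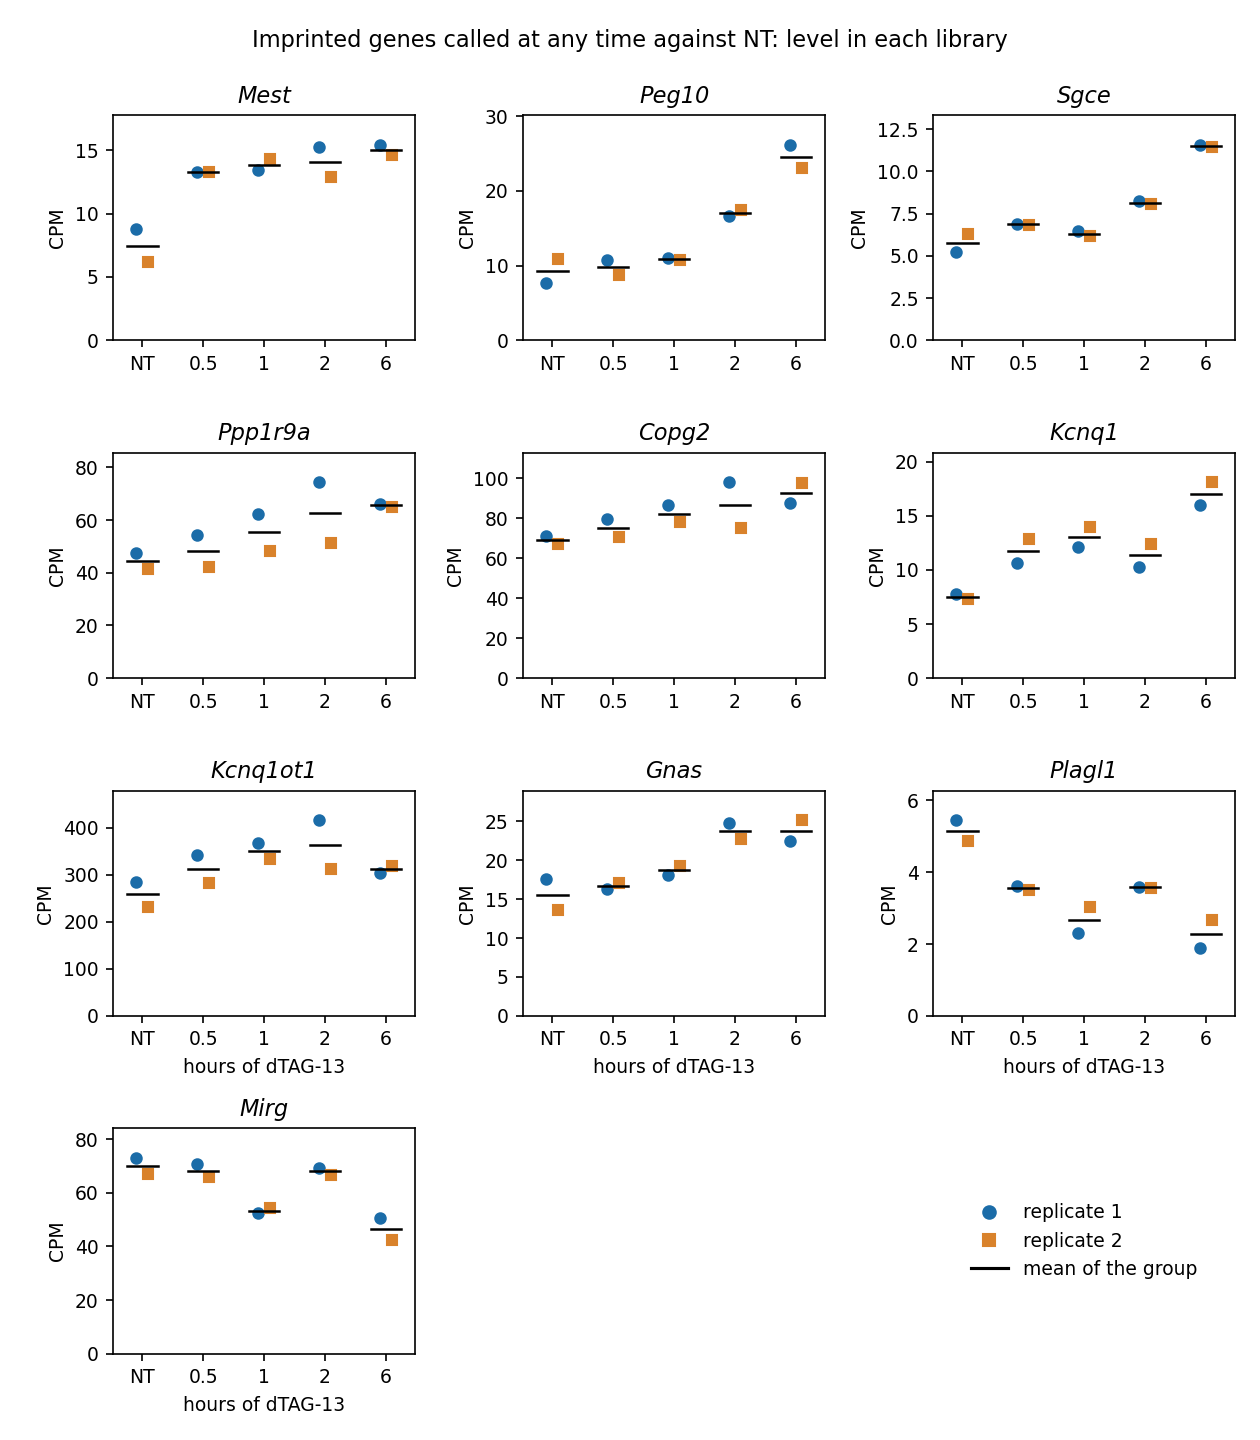
Level in CPM (axes from 0) of the 10 imprinted genes called at any time point, in each library of NT and of 0.5, 1, 2 and 6 hours of dTAG-13; circles and squares are replicates 1 and 2, and bars are group means. Mest is up from 0.5 hours, Peg10 and Sgce climb to 6 hours, and Plagl1 lies below NT in all 8 depleted libraries.

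In the Gnas cluster on chromosome 2, the coding member rose and the non-coding one did not pass the test. Gnas encodes the alpha subunit of the stimulatory G protein. It stood at 17.6 and 13.6 CPM in NT, 16.3 and 17.1 after 0.5 h, 18.1 and 19.25 after 1 h, 24.8 and 22.7 after 2 h, and 22.4 and 25.2 after 6 h. The libraries at 1, 2 and 6hpd all exceeded NT, with log2 fold changes of 0.61 ± 0.14 at both 2hpd (edgeR adjusted p = 0.0109) and 6hpd (0.0077). The calls were lost without NT replicate 2 (edgeR adjusted p = 0.126 and 0.0813), and without 2hpd replicate 1 (0.0825) or 6hpd replicate 2 (0.0833), respectively. Nespas, the antisense RNA of the cluster, ranged from 155 to 182 CPM over the 10 libraries, with log2 fold changes of -0.03, -0.08, 0.06 and 0.01, each ± 0.10, at 0.5, 1, 2 and 6hpd.

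Opposite Nespas, a TU without a symbol (chr2:174261710-174266790, plus strand) had the lowest log2 fold change at 6hpd (-4.23 ± 0.66) of the 21 tested TUs without a symbol in the clusters; it was noticed after its values had been seen. Its fragments numbered 18 and 20 in NT, 15 and 4 after 0.5 h, 8 and 6 after 1 h, 3 and 6 after 2 h, and 1 in each library at 6hpd. Every depleted group was below NT once scaled to library size. At 6hpd the 2 fragments against 38 in NT gave a ratio of 0.048 (95% exact interval 0.0056 to 0.186, counting error only), and edgeR called the TU down at 1hpd (adjusted p = 0.0477), 2hpd (0.00562) and 6hpd (0.00049). The 6hpd call was kept without each library, the 2hpd call was lost without NT replicate 2 or 2hpd replicate 1, and the 1hpd call was lost without any NT, 0.5hpd, 1hpd or 6hpd replicate. DESeq2 gave no adjusted p at 1 and 2hpd, and in edgeR the 1hpd call was also lost with RLE factors (adjusted p = 0.0506) and with no filter (0.0562).

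The Dlk1-Meg3 cluster was followed through its 3 non-coding hosts. These RNAs are read from the maternal copy, and their neighbour Dlk1, read from the paternal copy, had no TU. Meg3 stood at 156 and 132 CPM in NT, 180 and 146 after 0.5 h, 185 and 181 after 1 h, 187 and 163 after 2 h, and 120.5 and 111.5 after 6 h. Rian stood at 462 and 427, 492 and 398, 522 and 480.5, 599 and 456.5, and 354 and 343, and Mirg at 73.1 and 67.2, 70.7 and 65.85, 52.5 and 54.3, 69.4 and 66.7, and 50.6 and 42.6, in the same order. Meg3 and Rian were above NT at 1hpd while Mirg was below it, and all 3 were below NT at 6hpd.

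Mirg fell by 0.39 ± 0.11 after 1 h (edgeR adjusted p = 0.0461) and by 0.59 ± 0.11 after 6 h (0.00178) on the log2 scale, and measured -0.04 ± 0.11 after 2 h (0.846). The 6hpd call was kept in each fit. The 1hpd call was lost in DESeq2 (adjusted p = 0.0915) and, in edgeR, with RLE factors (0.0841), with no filter (0.0859) and without either NT replicate (0.217 and 0.127), either 0.5hpd replicate (0.0504 and 0.0561), either 1hpd replicate (0.308 and 0.204) or 6hpd replicate 1 (0.0566). Meg3 and Rian measured -0.32 ± 0.12 (edgeR adjusted p = 0.0998) and -0.35 ± 0.14 (0.0937) at 6hpd. Both were called down there by edgeR with total counts only, with a mean of at least 50 fragments, with only the libraries compared or with the replicate block. At 1 and 2hpd Meg3 measured 0.35 ± 0.12 (edgeR adjusted p = 0.136) and 0.28 ± 0.12 (0.171), and it was called up at 1hpd with only the libraries compared and with the replicate block, and at 2hpd with the block. The joint test over the time points called all 3 (edgeR adjusted p = 0.0104 for Meg3, 0.0477 for Rian and 0.00379 for Mirg). With 10 bp between them, and with Rian and Mirg starting where the authors split a longer stretch at annotated starts, the TUs are not independent of each other.

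Between 2 and 6hpd, where 0.777% of all TUs were called, 0.517% down, Meg3 and Mirg were the members that fell, by 0.60 ± 0.12 (edgeR adjusted p = 0.0358) and 0.55 ± 0.11 (0.0275) on the log2 scale, with Rian at -0.60 ± 0.14 (0.0589). Rian was called down as well by DESeq2 and, in edgeR, with total counts only, with no filter, at a minimum mean of 50 fragments and without either 0.5hpd replicate or 2hpd replicate 2. All 3 had both 6hpd libraries below both 2hpd libraries. The share of all TUs that did so was not counted. Against NT, both 6hpd libraries lay below for 31% of all TUs. The call of Meg3 was lost with RLE factors (edgeR adjusted p = 0.0542) and in 8 of the 10 fits that left out a library (edgeR adjusted p of up to 0.232), that is without any NT, 1hpd, 2hpd or 6hpd replicate, and the call of Mirg without any 1hpd, 2hpd or 6hpd replicate (up to 0.257). No member rose in this step, although 3 did so at an unadjusted p under 0.05. DESeq2 called 0 up, whereas the replicate block called Kcnq1, Sgce and Peg10 up and also Rian down. Between 0.5 and 1hpd and between 1 and 2hpd, edgeR and DESeq2 called 0 members (of all TUs, edgeR called 0.109% and 0.218%, the latter with 0.0211% up), while 1 and 4 members passed an unadjusted p of 0.05 in edgeR.

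Upstream of Meg3, a TU without a symbol lay between Dlk1 and Meg3 on the plus strand (chr12:109528400-109533969). It too was picked out after its values had been seen. Its fragments numbered 15 and 20 in NT, 25 and 10 after 0.5 h, 4 and 10 after 1 h, 4 and 6 after 2 h, and 7 and 5 at 6hpd, and each depleted library was below both NT libraries in CPM. The log2 fold change was -1.54 ± 0.48 after 1 h (edgeR adjusted p = 0.0772), -2.14 ± 0.50 after 2 h (0.0135) and -1.66 ± 0.49 after 6 h (0.0327). DESeq2 gave an adjusted p of 0.159 at 6hpd and none at 2hpd, and both edgeR calls were lost when NT replicate 2 was left out. That at 2hpd was also lost without 2hpd replicate 1, and that at 6hpd without either 6hpd replicate. Of 21 tested TUs without a symbol inside the clusters, this and the one opposite Nespas were the 2 called at 6hpd, both down, a share near the 9.2% of all TUs that fell.

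**Figure D4:**
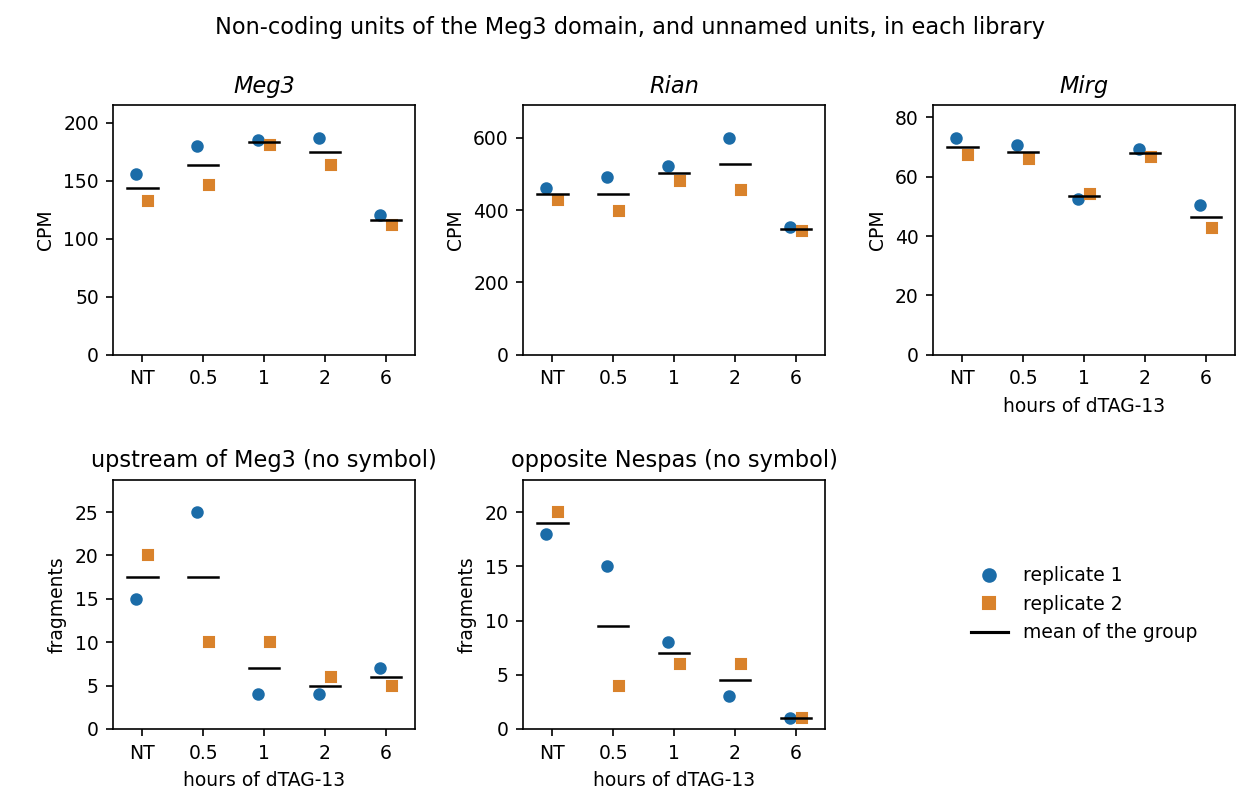
Upper row, level in CPM of Meg3, Rian and Mirg in each library; lower row, raw fragments of the 2 unnamed units, upstream of Meg3 and opposite Nespas, which are not scaled to library size. Circles and squares are replicates 1 and 2, bars are group means, and the unit opposite Nespas declines to 1 fragment per library at 6 hours.

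Outside the clusters, Plagl1 was the coding member that fell. Plagl1 (also Zac1) encodes a zinc finger transcription factor that restrains growth. It stood at 5.45 and 4.87 CPM in NT, 3.63 and 3.51 after 0.5 h, 2.32 and 3.02 after 1 h, 3.59 and 3.565 after 2 h, and 1.90 and 2.68 at 6hpd, on 27 to 93 fragments a library. All 8 depleted libraries were below NT. The log2 fold changes were -0.53 ± 0.22 (edgeR adjusted p = 0.426), -0.95 ± 0.23 (0.0235), -0.53 ± 0.22 (0.152) and -1.16 ± 0.24 (0.00382) at 0.5, 1, 2 and 6hpd. DESeq2 did not call it at 1hpd (adjusted p = 0.0716). In edgeR the 1hpd call was lost without either NT library (adjusted p = 0.126 and 0.0878 for replicates 1 and 2) or either 1hpd library (0.259 and 0.0675), and the 6hpd call without 6hpd replicate 1 (0.0556).

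The other 15 tested members were not called against NT at any time. Their log2 fold changes ran from -0.46 (Usp29) to 0.23 (Ube3a) at 0.5hpd and from -0.66 (Usp29) to 0.52 (Ube3a) at 6hpd, and 6 of them reached an unadjusted p under 0.05 at a time point. Ube3a, a ubiquitin ligase gene imprinted in neurons, came nearest, at 183 and 152.5 CPM in NT, 304 and 209 at 2hpd and 240.5 and 239 after 6 h (log2 fold change at 2hpd 0.61 ± 0.20, edgeR adjusted p = 0.0611). Ube3a was called up at 2hpd with no filter, and at 1, 2 and 6hpd both with only the compared libraries and with the replicate block. The same held at 2 and 6hpd without either 0.5hpd replicate. Ube3a was also called at 6hpd without either 2hpd replicate, and at 2hpd without 2hpd replicate 2. Its neighbour Snrpn, a splicing protein gene read from the paternal copy, stood at 46.2 and 46.7 CPM in NT and 54.1 and 49.3 after 6 h (0.15 ± 0.18, edgeR adjusted p = 0.594).

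Igf2r, the receptor that clears IGF2, stood at 92.3 and 89.4 CPM in NT and at 104.5 and 105.5 at 6hpd, where its log2 fold change was 0.21 ± 0.10 (edgeR adjusted p = 0.151). Impact, Inpp5f and Zdbf2 measured 0.28, 0.31 and 0.16 at 6hpd, Zrsr1 0.00 and Grb10 -0.35, and none passed the test. With only the compared libraries, Inpp5f was called up at 6hpd. With the replicate block, Igf2r, Impact and Zdbf2 were called up at 2hpd, and Impact and Inpp5f at 6hpd. Usp29 had 9 to 17 fragments a library and lay below NT in all 8 depleted libraries, with -0.66 ± 0.41 after 6 h (edgeR adjusted p = 0.298).

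Of the 7 members without a TU of their own, 3 had a TU on their strand over their RefSeq span. A TU without a symbol covered Peg3, a paternally read zinc finger gene, and measured 0.54 ± 0.19 after 6 h (edgeR adjusted p = 0.0631), on 162 to 547 fragments a library. The span of H19 was covered by the TU named for the microRNA gene Mir675, with 5 to 21 fragments, and that of Airn in part by a TU without a symbol that measured 0.33 ± 0.16 after 6 h (0.189). None of these was called at any time.

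A second list of 46 imprinted genes outside the members was read in the same fit. Of these, 28 were tested, and 0, 3, 4 and 4 rose at 0.5, 1, 2 and 6hpd, while 1 fell, at 6hpd. The shares that rose at 1, 2 and 6hpd were 10.7%, 14.3% and 14.3%, beside 4.3%, 8.05% and 11.9% of TUs with a symbol and a mean of at least 50 fragments, and 3.57% fell at 6hpd, beside 7.94%. Of all tested TUs with a symbol, under the filter that the 28 genes passed, 3.55%, 6.88% and 10.4% rose and 7.75% fell at 6hpd. Without NT replicate 2, the calls of Slc38a4 (edgeR adjusted p = 0.0773) and Ampd3 (0.0596) at 1hpd and of Sfmbt2 (0.151) and Ampd3 (0.228) at 2hpd were lost. Those of Slc38a4 and Ampd3 at 1hpd were also lost without 1hpd replicate 2 (edgeR adjusted p = 0.0847 and 0.075), that of Slc38a4 without 1hpd replicate 1 (0.0721), and those of Sfmbt2 and Ampd3 at 2hpd without 2hpd replicate 1 (0.297 and 0.0712). The 2hpd call of Sfmbt2 was lost without NT replicate 1 too (edgeR adjusted p = 0.0881), and that of Ampd3 with total counts only (0.165) and without 2hpd replicate 2 (0.113) or either 1hpd replicate (0.0546 and 0.0545). Both 2hpd calls were lost with only the compared libraries (edgeR adjusted p = 0.0558 and 0.122). The median log2 fold change of the 28 genes was 0.05, 0.19, 0.15 and 0.20. Sfmbt2, a placental Polycomb gene, went from 118 to 208.5 CPM (means of NT and 6hpd; log2 fold change 0.82, edgeR adjusted p = 0.000332). Slc38a4, an amino acid transporter gene, went from 258 to 406 (0.66, 0.000478), and Ampd3, an AMP deaminase gene, from 23.1 to 34.7 (0.59, 0.00234). Phactr2 also rose (0.49, edgeR adjusted p = 0.0117; lost without either NT replicate or 6hpd replicate 2), and Cd81, next to Tssc4, fell by 0.47 (0.0166; lost without NT replicate 1 or either 6hpd replicate).

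Dhcr7, which encodes the last enzyme of cholesterol synthesis, rose early and came back. Its log2 fold change was 0.90 after 1 h (edgeR adjusted p = 0.000494), 1.11 after 2 h (5.08e-05) and 0.26 after 6 h (0.193). The decrease of 0.85 from 2 to 6hpd was called (edgeR adjusted p = 0.00407), and was lost without 6hpd replicate 2.

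Among 20 factors that set or keep imprints, 17 were tested, and 2 rose and 2 fell at 6hpd (11.8% each). These shares are near those of TUs with a symbol and a mean of at least 50 fragments, 11.9% up and 7.94% down. Zfp57, the reader of the hexamer above, fell from 299 to 218 CPM (log2 fold change -0.46, edgeR adjusted p = 0.0258; lost without NT replicate 2 or either 6hpd replicate), and Uhrf1, which recruits the maintenance methyltransferase, fell from 382 to 291 (-0.39, 0.0133; lost without either NT replicate or 6hpd replicate 1). The de novo methyltransferase gene Dnmt3a rose from 30.6 to 46.5 (0.60, edgeR adjusted p = 0.00445; lost without NT replicate 2) and Smchd1, a chromatin silencing factor, from 164 to 253 (0.63, 0.00423; lost without 6hpd replicate 2). Dnmt1, Trim28 and Setdb1 were not called. Their log2 fold changes at 6hpd were -0.02, -0.10 and 0.08.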

How the data were processed

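TT_chem-seq was measured in 10 libraries, grouped by the labels as 5 groups of 2 replicates; no source says that replicates were separate cultures, so that p-values measure the spread between these samples, which may be technical. The authors deposited un-normalized counts: whole numbers of fragments on each TU. Per the submitters' processing notes and the study's methods, the authors aligned reads to mm10 (BWA 0.7.17-r1188), kept mapping quality 10 (SAMtools 1.10), removed duplicates (Picard 2.12.0), split alignments by strand and defined TUs from all libraries pooled. Starts given for TUs are likely 1 bp low.

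Units that exceeded 10 fragments in 2 or more libraries were fitted in edgeR 4.0.16 (R 4.3.3) with TMM factors, 1 coefficient per group and no covariate, and tested by the quasi-likelihood F-test. The SE is the size of the log2 fold change over the square root of F. The procedure was tested on simulated data. Precision follows from library totals of 11131490 to 25854106, and no replicate pair was a duplicate (chi-square per degree of freedom at least 3.09).

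The members and lists were chosen with earlier results of these data known. Members called against NT were named with full values. Alternatives were DESeq2 1.42.0, RLE factors, total counts only, no filter, a minimum mean of 50 counts, a fit of just the compared groups, a replicate block, and leaving out each library. The same alternatives for other genes and unnamed TUs were added after the data were seen.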

Additional observations from a re-analysis of the deposited data

Results flagged for a closer look

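The change of Meg3 and Mirg against NT differed between 2 and 6hpd in a test of the difference itself (edgeR quasi-likelihood test), with a log2 fold change from 2 to 6hpd of -0.60 for Meg3 (adjusted p = 0.0358) and -0.55 for Mirg (adjusted p = 0.0275). Both were lower in both 6hpd libraries than in both 2hpd libraries, but the share of all TUs that were so was not counted. The calls were not kept when only the 2hpd and 6hpd libraries were fitted (adjusted p = 0.0705 and 0.0859, edgeR). No group held enough libraries for a test of outlying samples.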

How the results depend on the processing

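Of 21 calls of a member at a time point (or from 2 to 6hpd), 14 were kept under each of the 7 other settings and 7 also without each library in turn, and no call reversed. Those 7 were Mest and Peg10 at 2 and 6hpd and Sgce, Kcnq1 and Mirg at 6hpd. DESeq2 called 0 members down at 1hpd, and RLE factors or no filter 1. From 2 to 6hpd, RLE factors left 1 member down and the libraries compared alone 0. At 6hpd, 4 members fell with total counts only, with a minimum mean of 50 counts and in fits of just the compared groups; the latter gave 5 up at 1hpd. With total counts only, the member medians were 0.0367, 0.0535, 0.163 and 0.119 at 0.5, 1, 2 and 6hpd (from 0.0751, 0.142, 0.281 and 0.209), and the median of all TUs at 2hpd moved from -0.04 to -0.16. The replicate numbers are not known to pair the samples: deviations of same-numbered libraries correlated at 0.0742 to 0.291 over TUs and at -0.362 to 0.754 over the members, although replicate 1 lay above replicate 2 on the first principal component in all 5 groups. With the replicate block, 2, 5, 13 and 10 members rose at 0.5, 1, 2 and 6hpd, and 4 fell at 6hpd. In that fit 1 rose from 1 to 2hpd and 3 from 2 to 6hpd, and the joint test called 16. The calls gained were Kcnq1 at 0.5hpd and Meg3, Kcnq1ot1 and Ube3a at 1hpd, all up. At 2hpd they were Meg3, Igf2r, Copg2, Sgce, Ppp1r9a, Impact, Zdbf2 and Ube3a, all up. At 6hpd they were Impact, Inpp5f and Ube3a up, and Meg3 and Rian down. From 2 to 6hpd they were Kcnq1, Sgce and Peg10 up, and Rian down.

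Without 1 library each, the members up numbered 0 to 1, 0 to 3, 2 to 10 and 4 to 8 at 0.5, 1, 2 and 6hpd, those down 0 to 2 at 1hpd and 1 to 3 at 6hpd, those down from 2 to 6hpd 0 to 3, and those of the joint test 6 to 14. The median ran from -0.0719 to 0.157 at 0.5hpd (it was below 0 only without 0.5hpd replicate 1), and its range was 0.10 to 0.19 for 1hpd, 0.18 to 0.42 for 2hpd and 0.10 to 0.25 for 6hpd. Each group held 2 replicates, and Phlda2, Usp29 and the unnamed TUs were measured on few fragments.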
